A study of Mus musculus with 10 samples.

Results

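The genes described here are 8 members of the ETS family of transcription factors, Erg, Fli1, Etv6, Elf1, Elf4, Ets1, Ets2 and Gabpa. They were chosen by name, as rows of the count table of a bulk RNA-seq experiment, and all 8 are present among its 17404 genes. The experiment compared long-term hematopoietic stem cells (LT-HSCs), sorted as CD150+ cells from fetal livers at E14.5. The 6 KO libraries came from Tnfrsf11aCre/+; Spi1f/f embryos and the 4 WT libraries from Tnfrsf11a+/+; Spi1f/f embryos. Both groups thus carried 2 floxed alleles of Spi1, which encodes the ETS factor PU.1, on a C57BL/6 background, and the controls were littermates. Cre recombinase is expressed from the Tnfrsf11a locus, which is active in the precursors of macrophages, so that the model removes fetal liver macrophages while the stem cells are meant to keep Spi1. The question of the comparison was whether the transcripts of LT-HSCs differ when the macrophages of their niche are missing.

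ETS factors bind DNA through a shared domain that recognizes a core of GGAA, and they differ in the bases beside the core, in their partners and in whether they activate or repress. ERG and FLI1 are needed for the formation and upkeep of blood stem cells, FLI1 also drives megakaryocyte genes, and both act together with TAL1, LYL1, LMO2, GATA2 and RUNX1 in the group of factors known as the heptad. Endothelial cells, which share an origin with blood, also rely on ERG, FLI1 and ETS1.

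Gene counts summed to between 5315435 and 30941726 per KO library and to between 7633446 and 18256010 per WT library. A gene is called higher or lower when the p of edgeR's quasi-likelihood test, adjusted after Benjamini and Hochberg over the 16725 genes that reached 11 counts in sum, is below 0.1. Standard errors are written SE. Levels between libraries are given as CPM, counts scaled by the TMM method to a common library size. The libraries differed in Xist and in the marker genes of several cell types. Xist, transcribed from the inactive X chromosome of female cells, was at 6.74 to 7.23 log2 CPM in the 4 WT libraries and at 8.44 and 8.50 in KO replicates 15409 and 15406, but at 1.24 to 1.76 in the other 4 KO libraries. The comparison of KO with WT therefore holds no WT library with low Xist. The summed CPM of 10 HSC marker genes ranged from 979 to 1972 among KO libraries and from 604 to 917 among WT libraries, and 3 of these genes (Cd34, Mecom and Hlf) were higher in KO and 0 lower. The summed CPM of 10 endothelial marker genes, which an LT-HSC sort is not expected to hold at high levels, ranged from 1303 to 7377 among KO and from 642 to 4688 among WT libraries, with 0 genes higher or lower. Of 8 erythroblast marker genes, 1 (Epor) was lower in KO and the median log2 fold change was -1.21, with sums of 1204 to 32160 CPM in KO libraries and of 1495 to 80840 CPM in WT libraries, the highest in WT replicate 15418. Of 10 macrophage marker genes, 1 (Marco, at 0 in KO) was lower and the median was -1.48, with sums of 199 to 917 CPM against 88.0 to 696 CPM. Most of these sums came from Mrc1, at a mean of 329 CPM in KO and 283 in WT, and Vcam1, at 98.4 and 65.6. Mrc1 and Vcam1 had log2 fold changes of 0.22 and 0.59, and the other macrophage genes were all below 0. The sums thus do not give the level of macrophage RNA. Of the endothelial list, Stab2 averaged 939 CPM, Lyve1 809 CPM and Kdr 569 CPM over all libraries. Kit averaged 200 CPM and Slamf1, the gene of CD150, 32.7 CPM. The paper also counts Lyve1 among macrophage markers. In bulk RNA, fewer cells of a type and less RNA per cell cannot be told apart.

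Of the 8 ETS genes, Elf4 was higher in KO and 0 were lower. Over all genes tested, 1.32% were called higher and 2.67% lower. The other 7 genes did not pass the threshold, and the log2 fold changes of the 8 had a median of 0.40, against 0.06 for all genes tested. This median moved with single libraries. It was 0.18 without WT replicate 15416 (4 of the 8 genes above 0) and 0.68 without WT replicate 15420, against 0.08 for all genes in each of these fits. With a centred offset for transcript length it was 0.30, against 0.09 for all genes. With the length offset that was not centred it was 0.04, against -0.16 for all genes. The plot of CPM by library shows where the groups overlap.

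**Figure D1:**
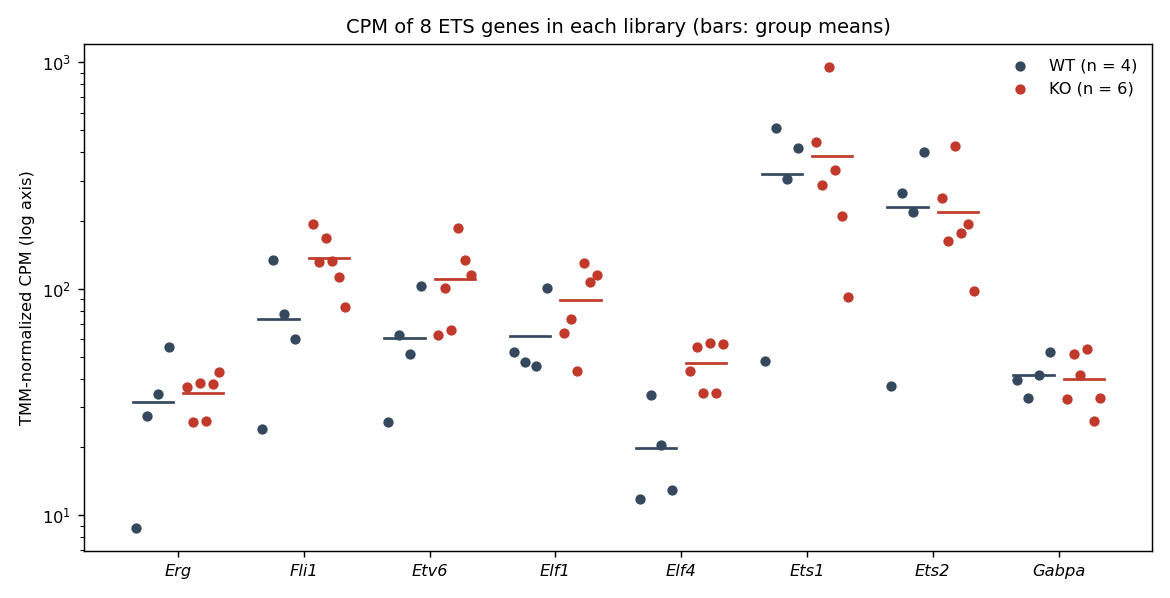
TMM-normalized CPM (log axis) of the 8 ETS genes in each of the 4 WT and 6 KO libraries; each point is a library and each bar a group mean. The KO and WT points are separate for Elf4 and overlap for the other genes, and 1 WT library lies far below the others for Erg, Fli1, Ets1 and Ets2.

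Elf4 lies on the minus strand of the X chromosome of GRCm38, at chrX:48411046-48463132. It encodes an activator of the ELF subfamily known for moving hematopoietic stem cells out of quiescence and for roles in natural killer and T cells. Elf4 was at 34.7 CPM in the lowest, 49.3 in the median and 57.7 in the highest KO library. The WT libraries held 11.8, 34.0, 20.4 and 12.9 CPM in replicates 15416, 15417, 15418 and 15420. All 6 KO libraries lay above all 4 WT libraries, which was the case for 2.88% of all genes tested, but the lowest KO library and WT replicate 15417 were less than 1 CPM apart. The KO mean was 47.1 ± 11 CPM (SD, n = 6) and the WT mean 19.8 ± 10.2 CPM (SD, n = 4), and the log2 fold change was 1.25 (SE 0.33, adjusted p = 0.0877 by edgeR). The study's own list of changed genes from these libraries also holds Elf4, so the call is not independent of it. The adjusted p was 0.0250 with DESeq2 under the study's fold-change threshold, where 3.56% of all genes were higher. The call was lost at 0.271 with Xist as a covariate and at 0.189 after a centred offset for transcript length, with log2 fold changes of 1.22 and 1.07. In these fits 0 of all genes were called (at p below 0.05 without adjustment, 866 were higher and 1507 lower with Xist, 1379 and 1194 with the offset). An offset for length that was not centred on each library's median gave 48 genes higher and 485 lower, against 221 and 446 without an offset, and Elf4 at 0.85 (adjusted p = 0.178 by edgeR). Elf4 was also lost in 8 of the 10 fits that left out 1 library, and kept without KO replicate 15409 (adjusted p = 0.0692 by edgeR) or WT replicate 15417 (0.0747). Over all alternatives tried, its adjusted p ranged from 0.00748 to 0.837.

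Because Elf4 is X-linked, the values were also read within the libraries that contain Xist. KO replicates 15406 and 15409 held 55.5 and 34.8 CPM of Elf4, above the 4 WT libraries, all of which contain Xist. The 2 KO libraries with Xist averaged 45.1 CPM and the 4 without it 48.1 CPM. In the fit of the 6 libraries with Xist alone, the log2 fold change of Elf4 was 1.16 (SE 0.52, adjusted p = 0.837 by edgeR), and 0 of all genes tested were called (at p below 0.05 without adjustment, 247 were higher and 456 lower). The transcripts of Elf4 are long, with a mean annotated length of 4458 bases that exceeds that of 94.1% of the genes tested. In the fifth of genes with the longest transcripts the median log2 fold change was 0.33, and in the fifth with the shortest it was -0.26. Most Elf4 signal fell on the transcript Elf4-201, with 99.2% ± 1.23 (SD, n = 6) of the gene's TPM in KO. In WT it held 87.3% ± 11.2 (SD, n = 4), from 73.4% to 100%, the rest being Elf4-202. Elf4-202 was estimated at 24.95 counts in KO replicate 15415 and in WT replicates 15416, 15418 and 15420. Their Elf4 counts were 866, 156, 276 and 91. Elf4-202 was at 24.48 counts in KO replicate 15411 and at 0 in the other libraries. Where it was assigned, its share was larger in libraries with fewer Elf4 counts. Whether it was assigned did not follow the total, since WT replicate 15417 and KO replicate 15406 had 383 and 351 Elf4 counts and none of Elf4-202. Its share is not read as a difference in transcript use. TPM, in contrast to CPM, divides by transcript length, and single-end reads divide such overlapping transcripts with an uncertainty that the files do not give.

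To show what lies before the starts of these genes, the 250 bases upstream of each start listed by RefSeq (GRCm38.p6) were searched on both strands for CCGGAA and CAGGAA, both forms of the ETS core. RefSeq windows were found for 6 of the 8 genes, 10 windows in all, and none for Fli1 and Ets1. Over the 32851 windows of this length in the reference, 12.0% hold CCGGAA, 25.7% hold CAGGAA and 35.1% hold at least 1 of the 2. Among the 10 windows of the ETS genes, 3 held a match: 1 CAGGAA for Etv6, 1 for Erg and 1 of each motif for Gabpa. The windows of Elf1, Elf4 and Ets2 held none, which says only that these letters are absent there. The windows below are 1 of Elf4, the gene that was higher in KO, 1 of Etv6 and 1 of Erg. The Elf4 window shown is at chrX:48463133-48463382 on the minus strand, directly before the annotated 5' end of the gene. The other Elf4 window, at chrX:48454320-48454569 on the minus strand, also held no match. The windows of Etv6 and Erg hold a match and overlap no annotated exon. They are at chr6:134035450-134035699 on the plus and chr16:95459349-95459598 on the minus strand. Each window is written 5' to 3' on the strand of the gene, and capitals mark the match, TTCCTG, the reverse complement of CAGGAA. The match begins 99 bases before the start in Etv6 and 39 bases before a start of Erg that lies inside the gene. The Erg windows at chr16:95586594-95586843, directly before the annotated 5' end of the gene, and at chr16:95530366-95530615 held no match.
Elf4: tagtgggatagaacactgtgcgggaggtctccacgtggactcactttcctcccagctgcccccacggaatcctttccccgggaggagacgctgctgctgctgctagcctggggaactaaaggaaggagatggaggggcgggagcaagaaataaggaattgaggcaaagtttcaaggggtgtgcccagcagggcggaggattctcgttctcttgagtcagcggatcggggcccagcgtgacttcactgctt
Etv6: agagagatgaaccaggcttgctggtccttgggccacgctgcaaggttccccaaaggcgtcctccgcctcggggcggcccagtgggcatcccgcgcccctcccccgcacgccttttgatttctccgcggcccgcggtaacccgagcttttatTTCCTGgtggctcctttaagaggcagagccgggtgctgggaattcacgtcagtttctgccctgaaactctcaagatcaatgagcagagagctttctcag
Erg: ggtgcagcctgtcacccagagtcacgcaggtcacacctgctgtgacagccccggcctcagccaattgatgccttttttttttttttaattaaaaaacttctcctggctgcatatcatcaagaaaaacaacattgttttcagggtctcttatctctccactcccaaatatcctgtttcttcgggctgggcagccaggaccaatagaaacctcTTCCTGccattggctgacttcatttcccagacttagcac

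Erg (chr16:95359169-95586593, minus strand) and Fli1 (chr9:32422204-32542861, minus strand) encode the closely related pair of stem cell factors. Erg was at 25.8 CPM in the lowest, 37.3 in the median and 43.1 in the highest KO library. In WT replicates 15416, 15417, 15418 and 15420 it was at 8.80, 27.5, 34.2 and 55.5 CPM. The WT libraries spread over a wider range than the KO libraries and enclose them, with a coefficient of variation of 61.2% against 20.5%. For Erg the log2 fold change was 0.14 (SE 0.39, adjusted p = 0.881 by edgeR), and it was -0.17 without WT replicate 15416. Fli1 was at 82.8, 132 and 194 CPM in the lowest, median and highest KO library. The WT libraries held 24.0, 134, 77.4 and 60 CPM, in the same order. WT replicate 15417 lay within the KO values and the other 3 WT libraries below all of them. The log2 fold change of Fli1 was 0.89 (SE 0.39), with an adjusted p of 0.237 by edgeR. Without WT replicate 15417 the adjusted p of Fli1 was 0.0990 at a log2 fold change of 1.35, and without WT replicate 15416 it was 0.364 at 0.60.

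Etv6 and Elf1 shared a pattern among the libraries. Etv6 (chr6:134035700-134270158, plus strand) encodes a repressor that recruits corepressors and is needed for adult stem cells to persist in bone marrow. Its lowest, median and highest KO libraries were at 62.8, 108 and 186 CPM. The WT libraries held 25.7, 62.5, 51.6 and 103 CPM in replicates 15416, 15417, 15418 and 15420. In 3 of the 6 KO libraries Etv6 exceeded every WT library. The log2 fold change of Etv6 was 0.87 (SE 0.39), with an adjusted p of 0.251 by edgeR.

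Elf1 (chr14:79481194-79582494, plus strand) encodes an activator with targets in blood and endothelial cells. It was at 43.5, 90.4 and 130 CPM in the lowest, median and highest KO library. The WT libraries held 52.6, 47.6, 45.6 and 101 CPM. The groups overlap at both ends, since KO replicate 15409 was the lowest of all 10 libraries. Elf1 had a log2 fold change of 0.53 (SE 0.33, adjusted p = 0.422 by edgeR). It was 0.11 with Xist as a covariate and -0.08 among the libraries with Xist. The 3 libraries with the highest Etv6, KO replicates 15411, 15412 and 15415 at 186, 134 and 115 CPM, were also the 3 with the highest Elf1, at 130, 107 and 115 CPM. These libraries had the highest summed CPM of 6 megakaryocyte marker genes, 2670, 2546 and 3617, against 175 to 357 in the other 3 KO libraries. They also contain no Xist above 1.76 log2 CPM. In WT, replicate 15420 had the highest Etv6, the highest Elf1 and the highest megakaryocyte sum, 1290 against 189 to 962. Of the 6 megakaryocyte marker genes, 0 were higher or lower in KO, and the part of these differences in the values of Etv6 and Elf1 was not tested. Both genes overlap an exon of a gene on the other strand, which unstranded reads cannot separate, Etv6 over 135 bases (2.26% of its exonic bases, Gm17089) and Elf1 over 327 bases (4.85%, Wbp4).

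Ets1 and Ets2 encode the founding pair of the family, activators that respond to RAS and MAP kinase signaling. Ets1 (chr9:32636221-32757820, plus strand) lies 93360 bases from Fli1, and Ets2 (chr16:95702075-95721051, plus strand) 115482 bases from Erg. Ets1 was at 92.2, 310 and 953 CPM in the lowest, median and highest KO library. In WT replicates 15416, 15417, 15418 and 15420 it was at 47.9, 514, 304 and 419 CPM. The spread within each group, a coefficient of variation of 78.0% in KO and 62.8% in WT, exceeded the difference between the means of 387 and 321 CPM. Ets2 was at 97.7, 185 and 426 CPM in the lowest, median and highest KO library. The WT libraries held 37.2, 264, 219 and 403 CPM. The groups overlap almost entirely. The log2 fold change was 0.27 (SE 0.66, adjusted p = 0.868 by edgeR) for Ets1 and -0.08 (SE 0.53, adjusted p = 0.954) for Ets2. Neither direction held, since Ets1 was at -0.23 without KO replicate 15409 and Ets2 at 0.33 without WT replicate 15420.

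The same libraries were low and high for Ets1, Ets2 and the endothelial markers. WT replicate 15416, the lowest of all libraries for Erg, Fli1, Etv6, Elf4, Ets1 and Ets2, had the lowest endothelial sum, 642 CPM. KO replicate 15415, the next lowest for Ets1 and Ets2, had the next lowest sum, 1303 CPM. KO replicate 15409, the highest for both genes, had the highest sum, 7377 CPM. In the remaining 7 libraries the sum was 3257 to 5894 CPM. Elf4 is set against the HSC markers in the plot of genes against marker sums. The 3 KO libraries with the highest HSC sums, 1472 to 1972 CPM, were the 3 with the highest Elf4, 55.5 to 57.7 CPM. The order did not hold among the other libraries. KO replicate 15412 had a higher HSC sum than replicate 15405, 1319 against 1271 CPM, but less Elf4, 34.7 against 43.2 CPM. WT replicate 15418 had the lowest HSC sum, 604 CPM, but more Elf4 than WT replicate 15420 with a sum of 769 CPM, 20.4 against 12.9 CPM. The part of the cell types in the values of the ETS genes was not tested.

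**Figure D2:**
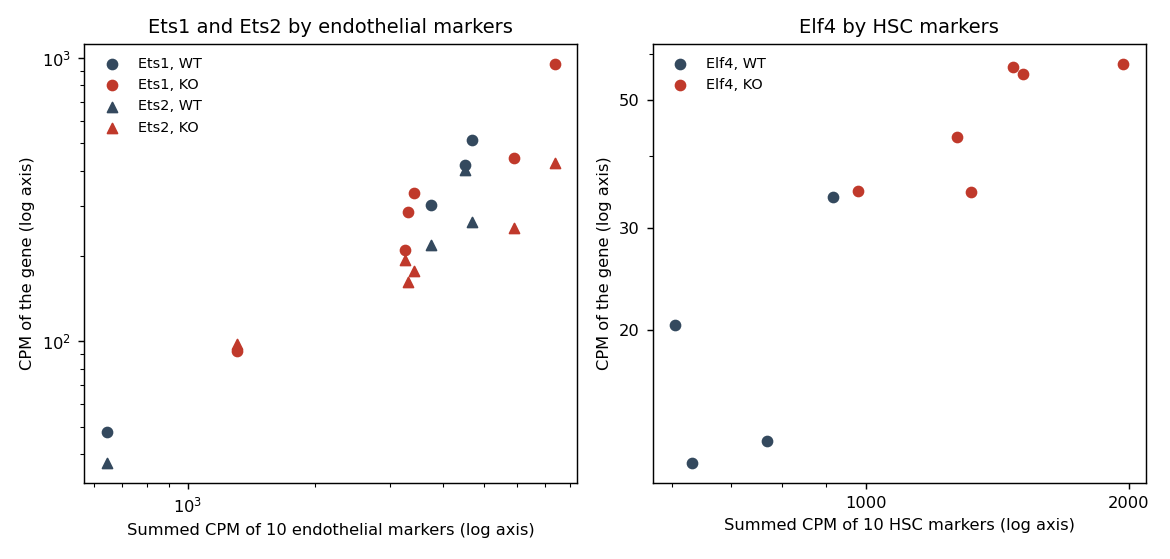
CPM of Ets1 and Ets2 against the summed CPM of 10 endothelial marker genes (left) and of Elf4 against that of 10 HSC marker genes (right), log axes, 1 point per library and gene. Ets1 and Ets2 are lowest where the endothelial sum is 642 and highest where it is 7377, and the KO libraries lie to the right of the WT libraries for HSC markers.

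Gabpa (chr16:84834925-84863779, plus strand) encodes the DNA-binding subunit of GABP, an activator of housekeeping and mitochondrial genes. It was at 26.0, 37.4 and 54.1 CPM in the lowest, median and highest KO library and at 39.4, 32.9, 41.6 and 52.8 CPM in the WT libraries. WT replicate 15416 was not low here, and the coefficients of variation were 28.2% in KO and 19.8% in WT. The log2 fold change was -0.06 (SE 0.25, adjusted p = 0.919 by edgeR), the smallest standard error of the 8 genes. Gabpa shares 397 exonic bases (6.98%) with Atp5j on the other strand.

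The plot of fold changes under 5 settings sets these differences side by side. The direction of Fli1, Etv6 and Elf4 was upward under all 26 alternatives tried. These use the same libraries or part of them, and the one at an adjusted p below 0.05 changes only the threshold. They are therefore not independent of each other. For Fli1 the log2 fold changes were 0.60 to 1.35, for Etv6 0.44 to 1.25 and for Elf4 0.85 to 1.64. The other 5 genes changed sign under at least 1 alternative.

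**Figure D3:**
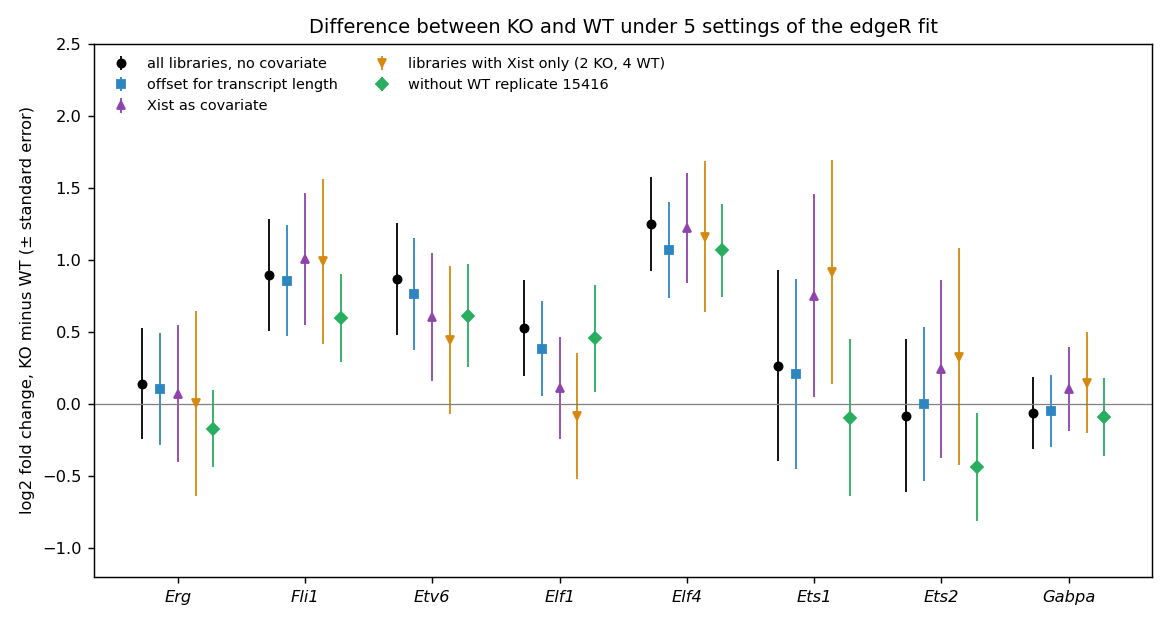
Log2 fold change, KO minus WT, with its standard error, for the 8 ETS genes in 5 edgeR fits: all libraries, an offset for transcript length, Xist as a covariate, the 6 libraries with Xist, and all libraries but WT replicate 15416. Elf4 lies between 1.07 and 1.25 in each, while the points of Erg, Elf1, Ets1, Ets2 and Gabpa lie on both sides of 0.

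Levels between genes were compared as TPM summed over each gene's transcripts, within libraries. The order of the means in WT, from the highest, was Ets1 (52.8 ± 39.4 TPM, SD, n = 4), Ets2 (49.2 ± 34.5), Fli1 (19.6 ± 15.6), Elf1 (13.2 ± 6.0), Etv6 (8.95 ± 5.24), Erg (8.49 ± 5.13), Gabpa (8.44 ± 2.24) and Elf4 (2.80 ± 1.90). The order in KO was the same, from Ets1 at 88.1 ± 71.5 TPM (SD, n = 6) to Elf4 at 8.83 ± 2.60 TPM. Neighbors in this order often did not hold their places from library to library. Ets1 exceeded Ets2 in 2 of 4 WT and 4 of 6 KO libraries, and Fli1 exceeded Elf1 in 2 of 4 and 5 of 6. Ets2 exceeded Fli1 in 4 of 4 WT and 5 of 6 KO libraries. Gabpa exceeded Elf4 in 4 of 4 WT and 4 of 6 KO libraries. On this scale WT replicate 15417, at 5.63 TPM, exceeded the lowest KO library for Elf4, at 5.31 TPM, so that the groups separate in CPM but not in TPM.

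**Figure D4:**
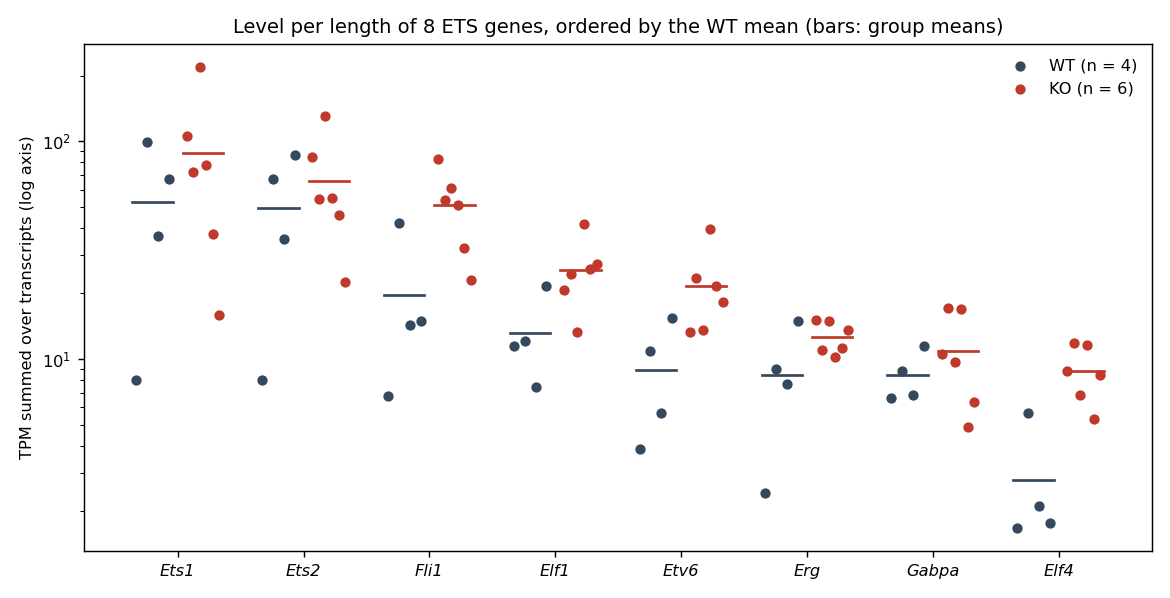
TPM summed over transcripts (log axis) of the 8 ETS genes in each library, ordered by the WT mean; points are libraries and bars group means. Ets1 and Ets2 have the highest means and Elf4 the lowest in both groups, from 52.8 to 2.80 TPM in WT.

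Within libraries, the balance of related genes was compared as a ratio of TPM, which does not depend on depth. Erg was below Fli1 in all 10 libraries, but nearly equal to it in WT replicate 15420, at a ratio of 0.997. The log2 ratio of Erg to Fli1 was -1.90 ± 0.65 (SD, n = 6) in KO and -1.16 ± 0.94 (SD, n = 4) in WT, a difference of -0.74 (two-sided exact permutation test, p = 0.190, adjusted p = 0.286 over 3 ratios). The log2 ratio of Elf1 to Elf4 was 1.51 ± 0.52 (SD, n = 6) in KO and 2.33 ± 1.10 (SD, n = 4) in WT, a difference of -0.82 (exact permutation p = 0.171, adjusted p = 0.286). The log2 ratio of Ets1 to Ets2 was 0.20 ± 0.48 (SD, n = 6) and 0.06 ± 0.38 (SD, n = 4), a difference of 0.14 (exact permutation p = 0.619, adjusted p = 0.619). None of the 3 differences passed the permutation test. A single one of the 210 arrangements of 6 against 4 libraries is a share of 0.00476. The two-sided test counts both tails, so the smallest p that it allows is larger than this.

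For 7 of the 8 genes the same transcript led in all 10 libraries, with means of 80.4% to 99.2% of the gene's TPM in KO and 74.3% to 98.7% in WT. Etv6 was shared between Etv6-201 and Etv6-202. Etv6-202 held 29.0% ± 18.8 (SD, n = 6) in KO, from 7.47% to 52.3%, and 9.88% ± 11.4 (SD, n = 4) in WT, from 0% to 20%. For Erg, 2 transcripts that are missing from the annotation used here were assigned to the gene because adding them matched its deposited count to within 0.99 counts in every library, while the next best pair missed by 80.7 counts. The one of 3062 bases, ENSMUST00000118113.7, then held 80.4% ± 11.1 (SD, n = 6) of Erg TPM in KO and 83.4% ± 18.0 (SD, n = 4) in WT. For Ets2, 3 missing transcripts were assigned in the same way. They matched its deposited count to within 1.0 counts, but the next best choice missed by only 4.24 counts.

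Other genes of the family and its partners were counted in lists. Of 16 other ETS genes tested, 0 were higher or lower with edgeR, with a median log2 fold change of 0.47. DESeq2 called 2 of them higher with the fold-change threshold and 3 without it. Over all 16422 genes that DESeq2 tested, it called 585 higher and 551 lower with the threshold. Without the threshold it called 998 higher and 1145 lower. Etv5 and Etv3, named after their values were seen, had fold changes near that of Elf4. Etv5 was at 1.22 (SE 0.38, adjusted p = 0.123 by edgeR), with all 6 KO libraries above all 4 WT libraries, and Etv3 at 1.21 (SE 0.36, adjusted p = 0.112), with groups that overlap. Elf2, a relative of Elf1, was at a log2 fold change of 0.47 (SE 0.20, adjusted p = 0.224 by edgeR), and Elk4, which binds DNA together with serum response factor, at 0.68 (SE 0.27, adjusted p = 0.202). Elk3, the most abundant of them at 136 CPM, was at 0.46 (SE 0.59). Spi1 itself was at 9.10 to 101 CPM in KO and 6.22 to 50.1 CPM in WT, so the counts in these sorted cells do not check the genotype. Of 9 partners and corepressors, which include the GABP beta subunits and the ETV6 corepressor Ncor1, 0 passed, with a median of 0.37. Of the 5 heptad partners 0 passed with edgeR, while DESeq2 called 1 higher with the fold-change threshold, and 1 higher and 1 lower without it. The log2 fold change of Gata2 was 1.27 (adjusted p = 0.113 by edgeR) and that of Runx1 1.18 (0.232). Tal1 was at -0.90 (adjusted p = 0.172), Lmo2 at -0.54 (0.414) and Lyl1 at 0.08 (0.917). The paper, which used DESeq2, reports Gata2 as upregulated in these libraries.

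Known targets of the factors were counted in the same way. Of 10 megakaryocyte targets, Selp, which encodes P-selectin, was higher. It averaged 28.5 ± 18.2 CPM (SD, n = 6) among KO libraries against 3.27 ± 2.24 CPM (SD, n = 4) among WT libraries (log2 fold change 3.13, SE 0.67, adjusted p = 0.0824 by edgeR). The other 9, such as Pf4 (1.10, SE 0.97) and Itga2b (0.84, SE 0.63), did not pass. The list had a median of 1.09, which fell to 0.60 without KO replicate 15415. Its direction turned with Xist, to a median of -1.09 with Xist as a covariate and of -1.73 among the libraries with Xist, with 2 of the 10 genes above 0 in each. Of 13 endothelial targets 0 passed, with a median of 0.35 that fell to 0.06 without WT replicate 15416; Egfl7 was at 0.30 (SE 0.39), Eng at 0.40 (0.49) and Esam at 0.63 (0.35). Of 8 GABP targets, the cytochrome oxidase subunit genes Cox4i1 and Cox5b were lower. Cox4i1 averaged 624 ± 81.4 CPM (SD, n = 6) among KO against 925 ± 110 CPM (SD, n = 4) among WT libraries, a log2 fold change of -0.57 (SE 0.15, adjusted p = 0.0910 by edgeR). Cox5b averaged 308 ± 39.7 CPM (SD, n = 6) against 520 ± 141 CPM (SD, n = 4), a log2 fold change of -0.76 (SE 0.19, adjusted p = 0.0836). The list had a median of -0.41, and its transcripts of Cox4i1 and Cox5b are short, at 603 and 510 bases on average. Selp, Cox4i1 and Cox5b did not pass after the centred offset for transcript length.

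Some genes followed the pattern of an ETS gene closely over the 10 libraries. The measure is Pearson's r of log2(CPM + 1), given as a description among 9494 genes with a mean of at least 10 CPM. The nearest to Ets2 were Plpp3, Chst2 and Akr1b8 (r = 0.993 each), and 412 genes had an r above 0.9. For Ets1 they were Ptk2, Plcd1 and Armcx1 (0.989, 0.989 and 0.986), with 313 genes above 0.9. Ets1 and Ets2 had an r of 0.945 with each other, so each is among the genes counted for the other. Fli1 was nearest to Zmiz1, Esam and Rab11fip3 (0.988, 0.980 and 0.978) and Elf4 to Plec, Atn1 and Adamts10 (0.978, 0.978 and 0.975). Erg was nearest to Amdhd2, Fhod1 and Cd63 (0.962, 0.961 and 0.942), Etv6 to Jarid2, Cd84 and Pde4b (0.974, 0.946 and 0.946) and Elf1 to Nceh1, Fbxl20 and Scamp1 (0.943, 0.922 and 0.919). Gabpa had no gene above 0.9, the nearest being Rpap2 (0.837), Phkg2 (0.835) and Nhlrc2 (0.828). The libraries share their depth and cell makeup across all these genes.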

How the data were processed

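LT-HSCs of 6 KO and 4 WT fetal livers were amplified by SmartSeq2 and sequenced as single-end reads, and the authors estimated transcripts of Gencode vM16 (GRCm38) with Kallisto 0.44.0. The authors deposited estimated counts and TPM per transcript, and a gene table of counts, which are sums over transcripts cut to whole numbers, without normalization. Gene counts were tested here with edgeR 4.0.16 in R, using TMM factors and the functions glmQLFit (robust) and glmQLFTest, for genes that summed to at least 11 counts. Ratios of TPM were compared by exact permutation over 210 arrangements. Positions, lengths and overlaps come from Gencode vM21, a later release, in which 133445 of 133944 transcripts were found. Xist was read from the transcript tables. The reads carry no molecular identifiers. The ETS genes and the gene lists were chosen with earlier results of these data known. The text names the 8 ETS genes, list genes past the threshold or among the 4 most abundant, and the 3 genes most like each ETS gene. Slamf1, Etv3, Etv5 and Runx1, outside this rule, were chosen after their values were seen. The study counts its replicates as embryos. Alternatives included DESeq2 1.42.0, other scalings and filters, covariates, length and GC offsets (loess, span 0.3), whose centring on each library's median was chosen after seeing the data, and leaving out each library.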

Additional observations from a re-analysis of the deposited data

Results flagged for a closer look

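WT replicate 15420 stood apart for Elf1, at 101 CPM against 52.6 CPM in the next WT library. WT replicate 15417 stood apart for Elf4, at 5.63 TPM against 2.11 TPM in the next WT library. In each case the gap to the nearest library, over the range of the group, exceeded Dixon's critical value for 4 samples. This happened in 2 of 38 groups of values examined, and about 1 in 20 is reached by chance.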

How the results depend on the processing

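The call of Elf4 was lost, and 0 of the 8 ETS genes passed, with Xist as a covariate, after the centred offset for transcript length, at an adjusted p below 0.05 and among the libraries with Xist, an alternative added after seeing the data. Under the same 4 settings 0 genes passed over all genes and 0 in the lists of other ETS genes, partners and targets. Over all genes, 667 passed in the main comparison, 1136 with DESeq2 under the fold-change threshold and 2143 without it; in the lists 3 passed, against 6 and 10 with DESeq2 and 5 with filterByExpr. Leaving out 1 library gave 0 to 1003 genes over all genes, 0 to 2 of the ETS genes and 0 to 6 of the list genes. The cause was not tested. With 1 library left out, the log2 fold changes ranged from -0.17 to 0.56 for Erg, from -0.23 to 0.59 for Ets1, from -0.44 to 0.33 for Ets2 and from -0.17 to 0.069 for Gabpa. Against the direction with all libraries, Erg was at -0.17 (WT replicate 15416), Ets1 at -0.23 and -0.09 (KO replicate 15409 and WT replicate 15416), Ets2 at 0.07 and 0.33 (KO replicate 15415 and WT replicate 15420), and Gabpa at 0.07 in each case (KO replicate 15412 and WT replicate 15420). Ets2 was at 0.24 with Xist as a covariate, at 0.0013 after the length offset and at 0.33 among the libraries with Xist, where Elf1 was at -0.082 and Gabpa at 0.15; with Xist as a covariate Gabpa was at 0.10. By share of estimated counts, the leading transcript held 97.5% of Fli1 in KO, 99.5% of Ets1 in KO, and 99.1% (KO) and 99.6% (WT) of Ets2. The offsets without centring, which shifted the median of all genes from 0.06 to -0.16 (length) and -0.15 (GC), were the first computed, and the centring was chosen after seeing the data. Without it 533 genes passed after the length offset and 1583 after the GC offset, 0 and 1 of the ETS genes and 2 and 5 of the list genes, and Erg was at -0.17 and -0.106. The ratios of related genes stayed at an adjusted p of at least 0.143 throughout. No paired analysis was possible because the labels number each library once, in 1 group only.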
